A study of Mus musculus with 8 samples.

Results

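The genes described here are *Nfe2l2*, which encodes the transcription factor NRF2, its cytoplasmic inhibitor gene *Keap1*, and 8 genes that NRF2 is known to drive, *Nqo1*, *Srxn1*, *Hmox1*, *Gclc*, *Gclm*, *Txnrd1*, *Slc7a11* and *Osgin1*. They are the 10 genes of that list found by symbol among the 55385 Ensembl identifiers of the deposited table of counts and FPKM (counts scaled to exon length and to the total count of the library). Liver RNA was sequenced from male mice on the C57BL/6J background, 5 weeks old and fasted for 16 h, with 4 *Usp39*-HKO mice (A469, A470, A471 and A474) and 4 control littermates (A468, A472, A473 and A475). *Usp39* encodes a protein of the spliceosome. In *Usp39*-HKO mice, *loxP* sites flank the second exon of *Usp39*, and a Cre recombinase under the albumin promoter deletes that exon in hepatocytes. The labels give the controls as WT, and whether they carried floxed alleles or Cre is not given in the sources used here. Each library came from whole liver, so cells other than hepatocytes contributed RNA in both groups. Whether *Usp39* stayed intact in all of these other cells is not given in the sources used here. The comparison asks how far these transcripts differ between *Usp39*-HKO and control livers.

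NRF2 is made continuously and, in unstressed cells, is bound by KEAP1, an adaptor of a CUL3 ubiquitin ligase, and degraded. Oxidants and electrophiles modify cysteines of KEAP1, NRF2 then escapes degradation, enters the nucleus, pairs with a small MAF protein and binds antioxidant response elements near its target genes. The targets rebuild reduced thioredoxin and glutathione, detoxify quinones and electrophiles and break down heme. Because NRF2 is controlled largely at the level of protein stability, its activity in liver is commonly read from these target transcripts.

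The core letters of the antioxidant response element (TGAC, any 3 bases, then GC) were searched on both strands in the windows around the RefSeq start sites on GRCm38.p6, each of 300 bases from 250 before to 50 after the start. Windows were at hand for 8 of the 10 genes (10 windows, as *Txnrd1* has 3), and not for *Hmox1* and *Gclc*. The letters were found in 4 of the 10 windows, those of *Nfe2l2*, *Srxn1*, *Gclm* and *Txnrd1*. They are shown because they hold the letters of the element, with the core in capitals and 10 bases on either side, each written 5′ to 3′ on the strand of the gene.
Nfe2l2: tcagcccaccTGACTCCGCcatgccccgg
Srxn1: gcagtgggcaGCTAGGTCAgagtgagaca
Gclm: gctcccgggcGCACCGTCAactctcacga
Txnrd1: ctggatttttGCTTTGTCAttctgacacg
The stretch of *Nfe2l2* is chr2:75704885-75704913 on the minus strand, and its core lies at bases −240 to −232 from the start. That of *Srxn1* is chr2:152105542-152105570 on the plus strand, with the core at bases 29 to 37 after the start. That of *Gclm* is chr3:122245413-122245441 on the plus strand, with the core at bases −134 to −126. That of *Txnrd1* is chr10:82859104-82859132 on the plus strand, with the core at bases −92 to −84 from the start of its second window. The last 30 bases of the *Nfe2l2* window were not found in the starts of its GENCODE transcripts, unlike those of the other windows. The position of the *Nfe2l2* core therefore rests on the RefSeq start alone. In *Nfe2l2* the core reads TGAC first, whereas in the other 3 it lies on the opposite strand and appears as its reverse complement. The same letters occur in 12.4% of all 32851 windows, and in a window of 14% of the 27025 genes that have one. A match is a description of the letters and not a binding site, and *Nqo1*, *Keap1*, *Slc7a11* and *Osgin1* hold none within these windows.

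Total counts lay between 8589636 and 10418450 per control liver and between 9479922 and 10195028 per *Usp39*-HKO liver, and a floor of 3 counts, which covers counting error only, was worth 0.288 to 0.349 CPM (library-scaled counts). *Usp39* itself was 9.58 ± 0.706 FPKM in controls and 8.44 ± 0.286 in the *Usp39*-HKO group (SD, n = 4 each), with a log2 fold change of −0.41 (adjusted p = 0.0212 in edgeR), or 0.75-fold, and no overlap between the groups. Most of its signal thus remained. A count over the whole gene does not single out the deleted exon, and the part of other cells in the remaining signal was not tested. Markers of the exocrine pancreas summed to 728.5 FPKM in control A475 and to at most 3.30 in any other liver. FPKM of the median gene tested was higher in *Usp39*-HKO livers by 0.17 on the scale of log2(FPKM + 1). TMM scaling (edgeR's scaling of library sizes by a trimmed mean of ratios) took this shift out, leaving a median log2 fold change of −0.0015. Fold changes below are therefore relative to the median gene, while FPKM are as deposited.

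Of the 10 genes, 9 were above 0.5 FPKM in every liver and were tested, and 5 of them rose in *Usp39*-HKO livers, namely *Nfe2l2*, *Srxn1*, *Nqo1*, *Hmox1* and *Osgin1* (edgeR's quasi-likelihood test, Benjamini-Hochberg adjusted p under 0.05 over 14340 genes). Over all genes tested, 10.9% were called higher, 11.6% lower and 22.5% in either direction. No member was called lower by edgeR, 1 had an unadjusted p under 0.05 in that direction, and DESeq2 called 1 lower, *Gclm* in both cases. limma on log2(FPKM + 1) called 6 higher and 0 lower (0 also at an unadjusted p under 0.05). That fit used FPKM as deposited, without TMM scaling, and so kept the general shift described above. *Keap1*, *Txnrd1*, *Gclc* and *Gclm* were not called, and *Slc7a11* was too low to test. The median log2 fold change of the 9 was 0.43, against −0.0015 over all genes. The members were chosen with earlier results of these data known, so their comparison with all genes is a description and not a test. In deposited FPKM, every *Usp39*-HKO liver was above every control for 5 members, *Nfe2l2*, *Srxn1*, *Txnrd1*, *Nqo1* and *Hmox1*, a pattern that 23.9% of all genes tested showed, and for no member was every one below, against 4.81% of all genes. After division by the TMM factors this held for 4 members, without *Txnrd1*, against 11.9% of all genes. In whole liver, a change in RNA per cell and a change in the share of a cell type cannot be told apart.

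*Nfe2l2* (ENSMUSG00000015839), the gene of NRF2, lies on chromosome 2 (GRCm38, minus strand, 75675513 to 75704641). It measured 24.0, 24.5, 22.1 and 27.7 FPKM in controls A468, A472, A473 and A475, and 34.9, 39.6, 39.5 and 42.1 in *Usp39*-HKO livers A469, A470, A471 and A474. The lowest *Usp39*-HKO liver, A469, was above the highest control, and the values within each group lay close together. The means were 24.6 ± 2.34 and 39.0 ± 2.99 FPKM (SD, n = 4 each), separated at the smallest two-sided p that 4 livers against 4 allow (exact permutation test, p = 0.0286). *Nfe2l2* rose by a log2 fold change of 0.43 (SE, the standard error, 0.093, 95% interval from 0.23 to 0.63, adjusted p = 0.00823 in edgeR), or 1.35-fold. Without TMM scaling, the log2 fold change was 0.67 (adjusted p = 0.00158).

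*Keap1* (ENSMUSG00000003308, minus strand of chromosome 9 from 21229730 to 21239361) encodes the inhibitor that presents NRF2 to the ubiquitin ligase. Its FPKM were 11.7, 15.6, 9.18 and 9.31 in the controls in the same order, and 14.2, 12.0, 17.3 and 14.7 in *Usp39*-HKO livers. The groups overlapped, and control A472 was above 3 of the 4 *Usp39*-HKO livers. The means of 11.4 ± 3.0 and 14.6 ± 2.17 FPKM (SD, n = 4 each) gave a log2 fold change of 0.12 (SE 0.18, 95% interval from −0.27 to 0.50, adjusted p = 0.689 in edgeR). An interval of this width leaves room for changes in either direction. In GENCODE, 10.9% of the exon bases of *Keap1* overlap *Gm16754* on the opposite strand, and whether counting used the strand is not given in the sources used here. The ratio of *Nfe2l2* to *Keap1* FPKM ranged from 1.57 to 2.98 over controls and from 2.28 to 3.29 over *Usp39*-HKO livers, with overlapping groups.

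**Figure D1:**
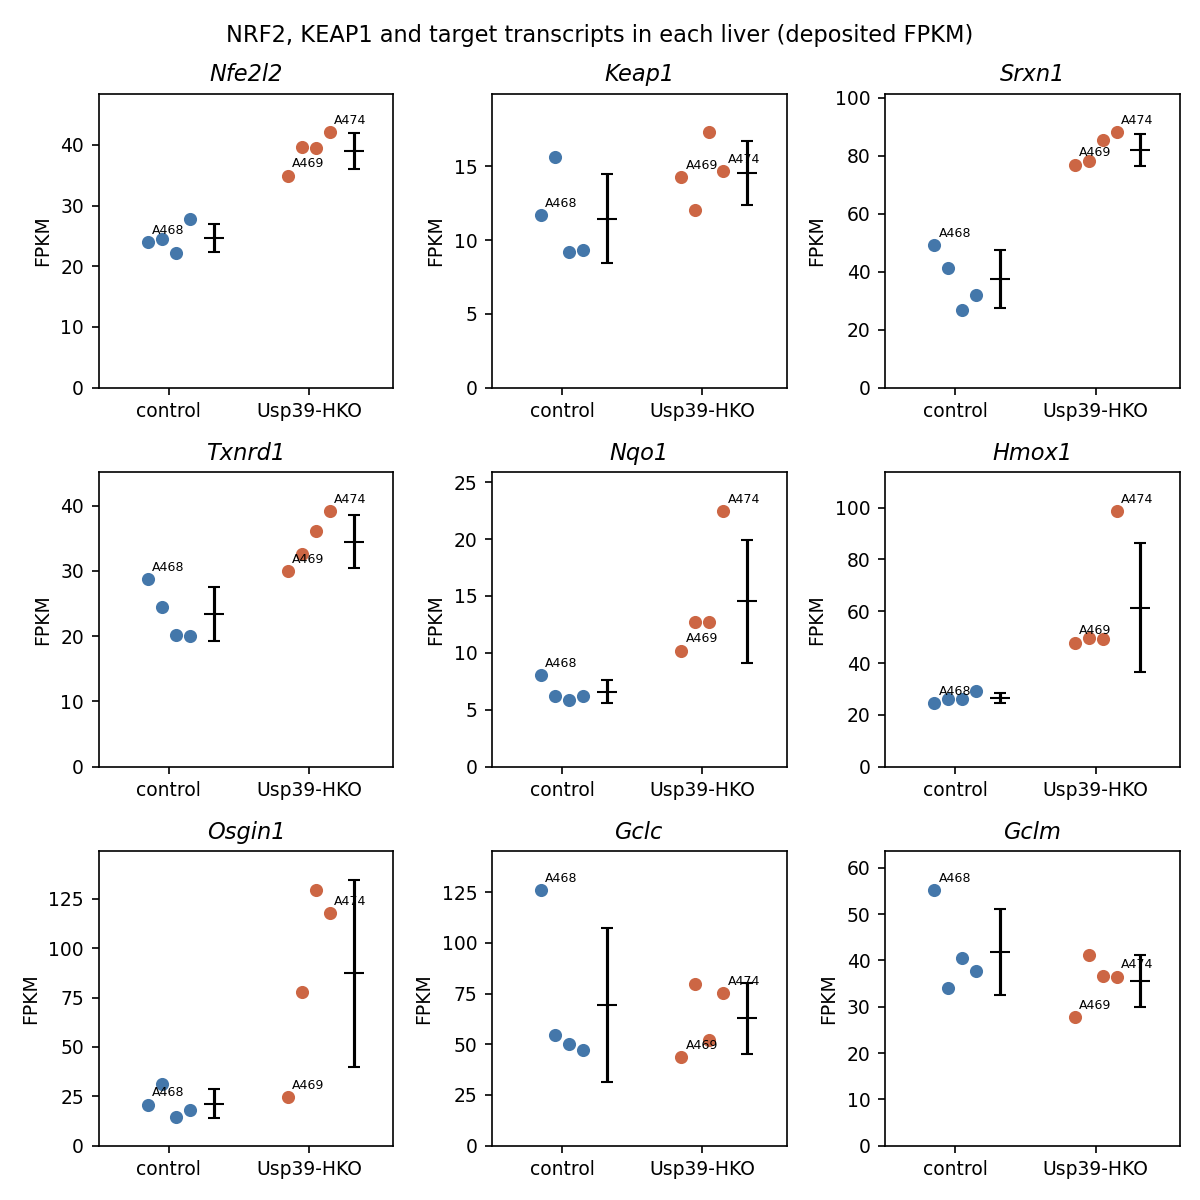
Deposited FPKM (vertical axes, starting at 0) of the 9 tested genes in each of 4 control livers (blue) and 4 *Usp39*-HKO livers (orange), with the mean and SD of each group as a black bar beside the points. The *Usp39*-HKO points lie above all control points for *Nfe2l2*, *Srxn1*, *Txnrd1*, *Nqo1* and *Hmox1*, and overlap them for *Keap1*, *Osgin1*, *Gclc* and *Gclm*, with A474 far above the others in *Hmox1* and control A468 far above the others in *Gclc*.

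Among the targets that handle protein thiols, *Srxn1* rose and *Txnrd1* did not pass the test. *Srxn1* (ENSMUSG00000032802, plus strand of chromosome 2 from 152105516 to 152111376) encodes sulfiredoxin, which restores over-oxidized peroxiredoxins. It measured 49.2, 41.4, 26.8 and 31.9 FPKM in controls A468, A472, A473 and A475, and 76.9, 78.1, 85.3 and 88.2 in *Usp39*-HKO livers A469, A470, A471 and A474. All *Usp39*-HKO livers lay well above all controls, and they spread less among themselves (coefficient of variation 6.71%) than the controls did (26.8%). The means were 37.3 ± 10 and 82.1 ± 5.52 FPKM (SD, n = 4 each, exact permutation p = 0.0286). The log2 fold change was 0.90 (SE 0.17, 95% interval from 0.53 to 1.27, adjusted p = 0.00413 in edgeR), or 1.87-fold.

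*Txnrd1* (ENSMUSG00000020250, plus strand of chromosome 10 from 82833951 to 82897712) encodes the cytosolic thioredoxin reductase, which returns thioredoxin to its reduced form at the cost of NADPH. Its FPKM were 28.8, 24.4, 20.2 and 20.1 in the controls and 29.9, 32.5, 36.1 and 39.2 in *Usp39*-HKO livers. The groups did not overlap in these values, but *Usp39*-HKO A469 was only slightly above control A468. The means were 23.4 ± 4.14 and 34.4 ± 4.06 FPKM (SD, n = 4 each), a difference of 11.1 FPKM with an exact permutation p of 0.0286. After division by the TMM factors the difference was 6.28 FPKM, 2 of the 4 *Usp39*-HKO livers were above all controls, and the exact permutation p was 0.0857. The log2 fold change of 0.32 (SE 0.13, 95% interval from 0.03 to 0.61) had an adjusted p of 0.11 in edgeR. It was 0.56 without TMM scaling (adjusted p = 0.0125) and 0.44 without control A468 (adjusted p = 0.0368), so the call on *Txnrd1* turned on the scaling and on 1 liver.

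*Nqo1* and *Hmox1*, both classical readouts of NRF2, rose. *Nqo1* (ENSMUSG00000003849, minus strand of chromosome 8 from 107388225 to 107403206) encodes a quinone reductase that detoxifies quinones without releasing radicals. It measured 8.07, 6.17, 5.85 and 6.18 FPKM in controls A468, A472, A473 and A475, and 10.2, 12.7, 12.8 and 22.5 in *Usp39*-HKO livers A469, A470, A471 and A474. Every *Usp39*-HKO liver was above every control, A474 was the highest by a wide gap, and A468 was the highest control. The means were 6.57 ± 1.01 and 14.5 ± 5.43 FPKM (SD, n = 4 each, exact permutation p = 0.0286). *Nqo1* had a log2 fold change of 0.89 (SE 0.20, 95% interval from 0.45 to 1.33, adjusted p = 0.00993 in edgeR), or 1.85-fold, and of 0.66 without A474 (adjusted p = 0.0186).

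*Hmox1* (ENSMUSG00000005413, plus strand of chromosome 8 from 75093621 to 75100589) encodes the inducible heme oxygenase, which opens heme to biliverdin, iron and carbon monoxide. Its FPKM were 24.4, 26.1, 26.2 and 29.2 in the controls and 47.8, 49.5, 49.4 and 98.7 in *Usp39*-HKO livers. The controls were tight (coefficient of variation 7.42%), 3 of the *Usp39*-HKO livers were nearly equal, and A474 stood far above them. The means of 26.5 ± 1.96 and 61.4 ± 24.9 FPKM (SD, n = 4 each, exact permutation p = 0.0286) differed by 34.9 FPKM, or by 22.5 FPKM without A474. The log2 fold change was 0.96 (SE 0.18, 95% interval from 0.55 to 1.36, adjusted p = 0.0046 in edgeR), or 1.94-fold. Without A474, it was 0.69 (adjusted p = 0.00207).

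*Osgin1* (ENSMUSG00000074063, plus strand of chromosome 8 from 119434124 to 119446256), which encodes an oxidative stress induced growth inhibitor, had the highest fold change of the members and, within the *Usp39*-HKO group, the widest relative spread. It measured 20.8, 31.4, 14.5 and 18.2 FPKM in controls A468, A472, A473 and A475, and 24.7, 77.6, 129.5 and 117.6 in *Usp39*-HKO livers A469, A470, A471 and A474. Thus 3 of the 4 *Usp39*-HKO livers were far above all controls, while A469 lay within the control range. The means were 21.2 ± 7.24 and 87.3 ± 47.3 FPKM (SD, n = 4 each, exact permutation p = 0.0571). *Osgin1* rose by a log2 fold change of 1.78 (SE 0.40, 95% interval from 0.91 to 2.65, adjusted p = 0.00949 in edgeR), or 3.44-fold. With 1 liver left out in turn, its log2 fold change lay between 1.5 and 2.10.

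Neither subunit gene of the ligase that starts glutathione synthesis passed the test in edgeR. *Gclc* and *Gclm* encode the catalytic and the modifier subunit of glutamate cysteine ligase, which makes the first and rate-limiting step of glutathione synthesis, and *Slc7a11* encodes the cystine importer xCT. *Gclc* (ENSMUSG00000032350, plus strand of chromosome 9 from 77754535 to 77794485) measured 126.2, 54.5, 49.9 and 47.0 FPKM in controls A468, A472, A473 and A475, and 43.7, 80.0, 51.9 and 75.3 in *Usp39*-HKO livers A469, A470, A471 and A474. Control A468 alone was above all other livers, and the other 3 controls lay within the range of the *Usp39*-HKO livers. The means were 69.4 ± 38.0 and 62.7 ± 17.6 FPKM (SD, n = 4 each, exact permutation p = 0.8). The log2 fold change was −0.40 (SE 0.30, 95% interval from −1.06 to 0.27, adjusted p = 0.384 in edgeR), and without A468 it was 0.07 (adjusted p = 0.83).

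*Gclm* (ENSMUSG00000028124, plus strand of chromosome 3 from 122245557 to 122270732) measured 55.2, 34.1, 40.6 and 37.7 FPKM in the controls and 27.8, 41.2, 36.7 and 36.5 in *Usp39*-HKO livers. The groups overlapped, with A468 the highest of the 8 and A469 the lowest. The means were 41.9 ± 9.27 and 35.5 ± 5.61 FPKM (SD, n = 4 each, exact permutation p = 0.343). The log2 fold change, relative to the median gene, was −0.48 (SE 0.16, 95% interval from −0.84 to −0.12), and its adjusted p of 0.0553 in edgeR missed the threshold. The adjusted p was 0.0445 without *Usp39*-HKO A470, 0.0334 without control A472 and 0.0309 in DESeq2. Its log2 fold change was −0.24 without TMM scaling (adjusted p = 0.294), −0.22 in limma on log2(FPKM + 1) (adjusted p = 0.338) and −0.31 without control A468 (adjusted p = 0.155), so its size depended on the scaling and on that liver. Of the exon bases of *Gclm*, 3.88% overlap *Gm6061* on the same strand and 4.71% *Gm17494* on the opposite strand. The ratio of *Gclc* to *Gclm* FPKM was 1.59 ± 0.494 in controls and 1.75 ± 0.305 in the *Usp39*-HKO group (SD, n = 4 each), within the spread between livers.

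*Slc7a11* (ENSMUSG00000027737, minus strand of chromosome 3 from 49892526 to 50443614) had 0, 0, 0 and 2 counts in the controls and 0, 1, 3 and 4 in *Usp39*-HKO livers. Its FPKM reached at most 0.0303, whereas 3 counts correspond to between 0.0207 and 0.0251 FPKM for a transcript of this length. Most livers were therefore at or under the floor in both groups, and no difference in *Slc7a11* was detectable at this depth.

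**Figure D2:**
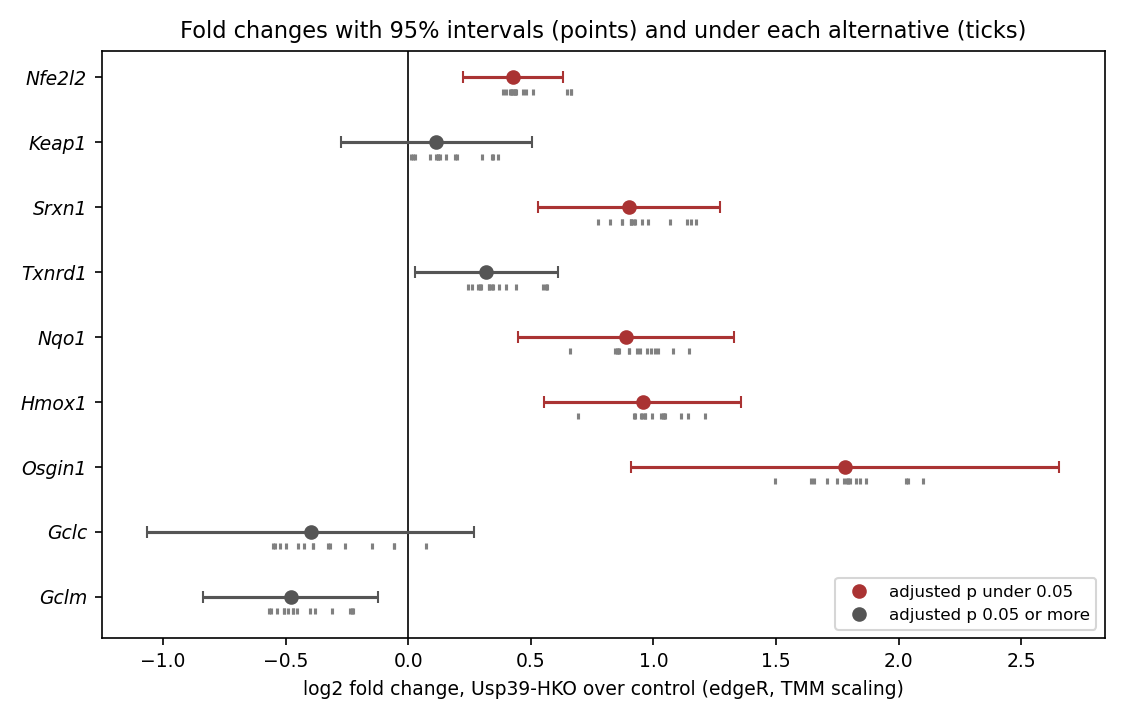
Log2 ratio of *Usp39*-HKO to control livers from edgeR with TMM scaling (horizontal axis) for the 9 tested genes, with 95% intervals, colored red where the adjusted p is under 0.05. The grey ticks below each point give the same quantity under the 15 alternatives. They stay above 0 for *Nfe2l2*, *Srxn1*, *Nqo1*, *Hmox1* and *Osgin1*, and also for *Keap1* and *Txnrd1*, which were not called. The ticks of *Gclm* stay below 0, while those of *Gclc* fall on both sides of 0.

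The order of the FPKM levels, which are per length and can be compared between genes, differed between the groups. In controls the order of the means ran *Gclc*, *Gclm*, *Srxn1*, *Hmox1*, *Nfe2l2*, *Txnrd1*, *Osgin1*, *Keap1*, *Nqo1* and *Slc7a11*. Each neighbour in that order overlapped the next over the 4 controls, except *Keap1* with *Nqo1* and *Nqo1* with *Slc7a11*. In *Usp39*-HKO livers it ran *Osgin1*, *Srxn1*, *Gclc*, *Hmox1*, *Nfe2l2*, *Gclm*, *Txnrd1*, *Keap1*, *Nqo1* and *Slc7a11*. There, neighbours overlapped except *Hmox1* with *Nfe2l2*, *Txnrd1* with *Keap1*, and *Nqo1* with *Slc7a11*. *Osgin1* thus stood in place 7 by its mean in controls and in place 1 in *Usp39*-HKO livers, while in A469 its level lay within the control range.

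The livers of a group were not equally placed across the members. In deposited FPKM, A469 was the lowest *Usp39*-HKO liver in 8 of the 9 tested genes, all but *Keap1*. A474 was the highest in 5, *Nfe2l2*, *Nqo1*, *Srxn1*, *Hmox1* and *Txnrd1*. Among the controls, also in deposited FPKM, A468 was the highest in 5, *Nqo1*, *Srxn1*, *Gclc*, *Gclm* and *Txnrd1*, and A473 the lowest in 5. These ranks depended on the scaling. After division by the TMM factors, A471 was above A474 in *Nfe2l2* (37.1 against 35.53), *Srxn1* (80.23 against 74.42) and *Txnrd1* (33.96 against 33.05). A470 was then below A469 in *Srxn1* (72.02 against 75.95) and *Hmox1* (45.65 against 47.26). The members are read from the same libraries, so these ranks are not independent of each other. Spread within the *Usp39*-HKO group ran from a coefficient of variation of 6.71% for *Srxn1* and 7.66% for *Nfe2l2* to 40.6% for *Hmox1* and 54.2% for *Osgin1*.

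Markers of other cell types moved with the genotype as well. For the counts of calls given here, the shares over all genes tested were 10.9% higher and 11.6% lower. The 6 Kupffer cell markers summed to between 263.5 and 345.4 FPKM in controls and between 489 and 718 in *Usp39*-HKO livers, 4 of the 6 were called higher, and A474 had the highest sum. Stellate cell markers summed to between 15.5 and 22 FPKM in controls and between 25.8 and 56.7 in *Usp39*-HKO livers (4 of 6 called higher), and cholangiocyte markers to between 11.2 and 12.6 and between 13.9 and 34.2 FPKM (3 of the 4 tested called higher). In both of these lists, A469 had the lowest and A474 the highest sum of the *Usp39*-HKO livers, as they had in the deposited FPKM of *Nqo1* and *Hmox1*. Recruited myeloid markers overlapped in their sums, from 7.39 to 21.6 FPKM in controls and from 9.89 to 35.5 in *Usp39*-HKO livers, with 3 of the 5 tested called higher. Of the erythroid markers, 4 of the 4 tested were called lower, and their sums lay between 321.7 and 683 FPKM in controls and between 144 and 325 in *Usp39*-HKO livers. Endothelial markers summed to between 97.5 and 109 and between 102 and 106 deposited FPKM, with 2 of 6 called lower. After TMM scaling, every *Usp39*-HKO liver was below every control in this sum. Its log2 ratio to the control mean lay between −0.33 and −0.13, against −0.08 to 0.07 over controls. Hepatocyte markers were by far the most abundant, at 14390 to 16320 FPKM in controls and 12960 to 17930 in *Usp39*-HKO livers, with 1 of 6 called lower, *Cps1*. After TMM scaling, the log2 ratio of the hepatocyte sum was −0.48 in A470, −0.58 in A474, −0.15 in A471 and 0.08 in A469. Over controls it lay between −0.13 and 0.08. No marker in any of these lists was at 0 in every liver. Kupffer cells are known to express *Hmox1* strongly, and the part of any cell type in the member transcripts was not tested.

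**Figure D3:**
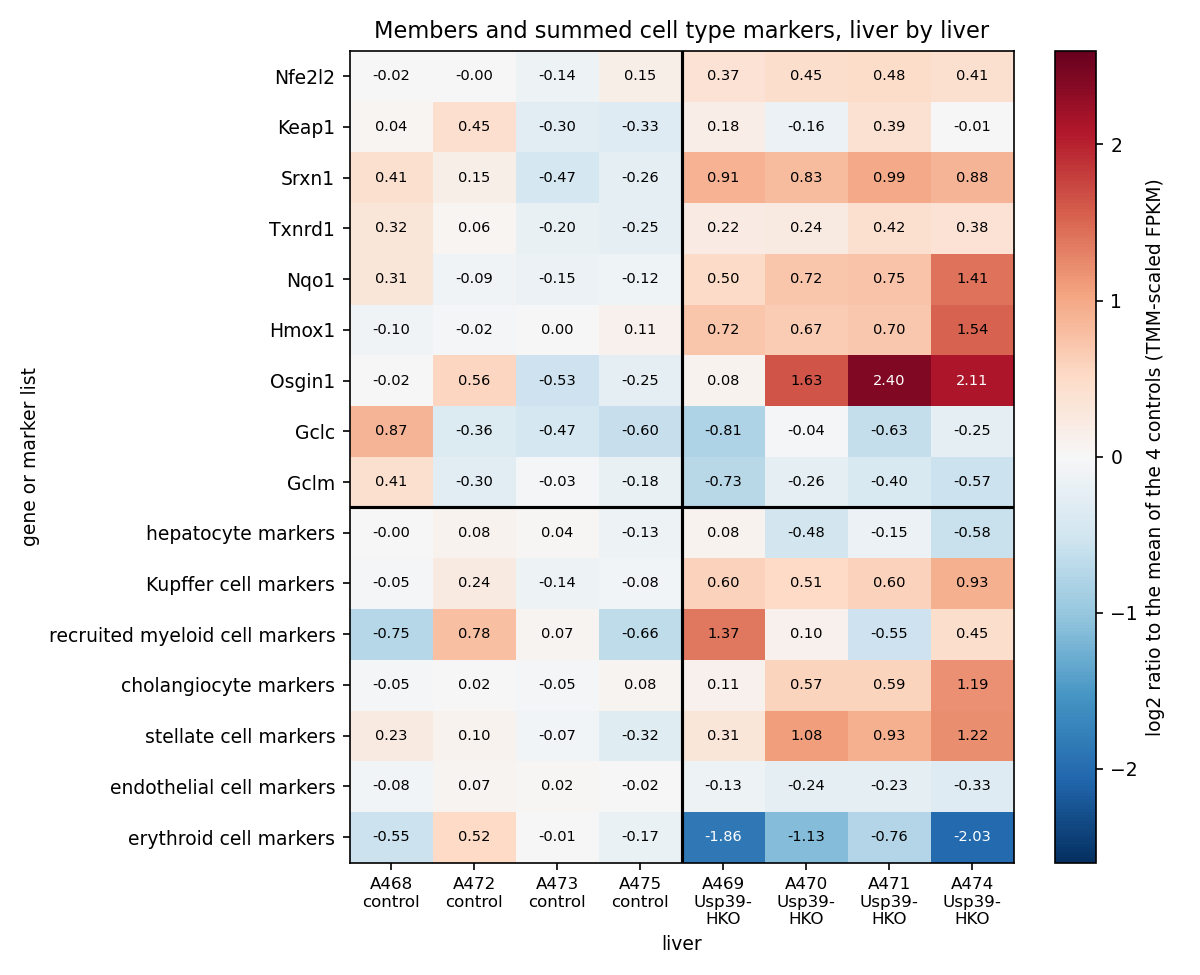
Log2 ratio of each liver's TMM-scaled FPKM to the mean of the 4 controls (color and printed value) for the 9 tested genes, above the horizontal line, and for the summed markers of 7 cell types below it, with control livers left and *Usp39*-HKO livers right of the vertical line. In the *Usp39*-HKO livers *Nfe2l2*, *Srxn1*, *Nqo1* and *Hmox1* are above 0 throughout, and *Osgin1* is at 0.08 in A469 against 1.63 to 2.40 in the others. Kupffer cell, stellate cell and cholangiocyte markers are above 0 in the same livers.

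The wider pathway was followed in 8 lists of 125 genes that encode partners of NRF2 and enzymes of the same chemistry, of which 115 were tested. In these, 24 genes were called higher and 17 lower by edgeR, while 74 were not called, and the median log2 fold change was 0.10. The background was 10.9% higher and 11.6% lower over all genes, and it applies to the count of each list below. These lists, too, were chosen with earlier results of these data known. The balance depended on the scaling, as without TMM scaling 49 of the 115 were called higher and 6 lower, and over all genes 83.3% rather than 48.4% of the calls were higher. The median log2 fold change of all genes is 0.23 in that fit, so falls given below are smaller there. Without *Usp39*-HKO A474 the numbers were 20 higher and 10 lower, without control A473 19 and 10, and without control A475, the liver with pancreas markers, 19 and 13.

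Of the 20 NRF2 partners and regulators tested, 4 rose, 3 fell and 13 were not called, with a median log2 fold change of 0.01. The shares over all genes tested were 10.9% higher and 11.6% lower. *Mafk*, a small MAF protein with which NRF2 binds DNA, measured between 5.28 and 6.67 FPKM in controls and between 10.3 and 17.7 in *Usp39*-HKO livers, a log2 fold change of 0.85 (adjusted p = 0.00471). *Atf3*, the gene of a stress-induced transcription factor, measured between 1.24 and 2.78 FPKM in controls and between 3.87 and 25.9 in *Usp39*-HKO livers, with A469 the lowest of these, a log2 fold change of 2.56 (adjusted p = 0.0052). *Maff*, another small MAF gene, and *Pgam5*, whose product binds KEAP1, also rose, by 1.48 and 0.50 on the log2 scale. *Btrc*, which encodes a ubiquitin ligase adaptor that can take NRF2 to degradation without KEAP1, fell by 0.64 on the log2 scale (adjusted p = 0.00571), from between 1.28 and 1.82 FPKM to between 1.09 and 1.34. *Dpp3*, whose product competes with NRF2 for KEAP1, fell by 0.52 on the log2 scale (adjusted p = 0.0095), from between 9.96 and 12.9 FPKM to between 8.49 and 9.83. *Cul3*, *Rbx1*, *Bach1* and *Mafg*, which encode the rest of the KEAP1 ligase, a repressor that competes for the same DNA letters and a further small MAF, had log2 fold changes of −0.01, 0.20, −0.06 and −0.27 and were not called. Without TMM scaling the adjusted p of *Dpp3* was 0.0662, and that of *Btrc* was 0.131 in limma on log2(FPKM + 1).

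Detoxification enzymes and transporters that depend on NRF2 held the greatest number of calls, with 12 of the 33 tested higher, 6 lower and 15 not called, and a median log2 fold change of 0.25. *Gsta4*, a glutathione transferase for lipid aldehydes, measured between 11.9 and 14.7 FPKM in controls and 41.2, 61.2, 53.6 and 99.0 in the *Usp39*-HKO group A469, A470, A471 and A474. All were above every control, and the log2 fold change was 2.0 (SE 0.20, adjusted p = 0.000317), or 3.99-fold. *Gstm3*, a transferase of the mu class, measured between 4.08 and 7.81 FPKM in controls and 50.9, 262, 249.1 and 400.4 in the *Usp39*-HKO livers in the same order. A469 was again the lowest and A474 the highest, and the log2 fold change was 4.91 (SE 0.50, adjusted p = 0.000326), or 30.0-fold. Of the longest transcript of *Gstm3*, 43.2% is shared at high identity with *Gm8834*, and how reads matching several genes were counted is not given in the sources used here, which leaves the levels of this family uncertain. *Abcc3*, an export pump for conjugates, fell from between 68.6 and 103 FPKM to between 48.8 and 59.6, by 0.96 on the log2 scale (adjusted p = 0.00234). *Gstm4* fell by 0.78 on the log2 scale (adjusted p = 0.00963), and its adjusted p was 0.0616 in limma on log2(FPKM + 1). The groups of *Gstm4* overlapped, at 24.8 to 43.9 and 17.3 to 25.8 FPKM. The direction was therefore mixed within the glutathione transferases, but more of them were called higher than lower. *Gsta1*, *Gsta2*, *Gstm1* and *Gstm2* were also called higher, with log2 fold changes of 6.12, 1.58, 0.54 and 1.0. *Mgst3* was called higher and *Mgst1* lower, while *Gsta3*, *Gstp1* and *Gstp2* were not called.

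**Figure D4:**
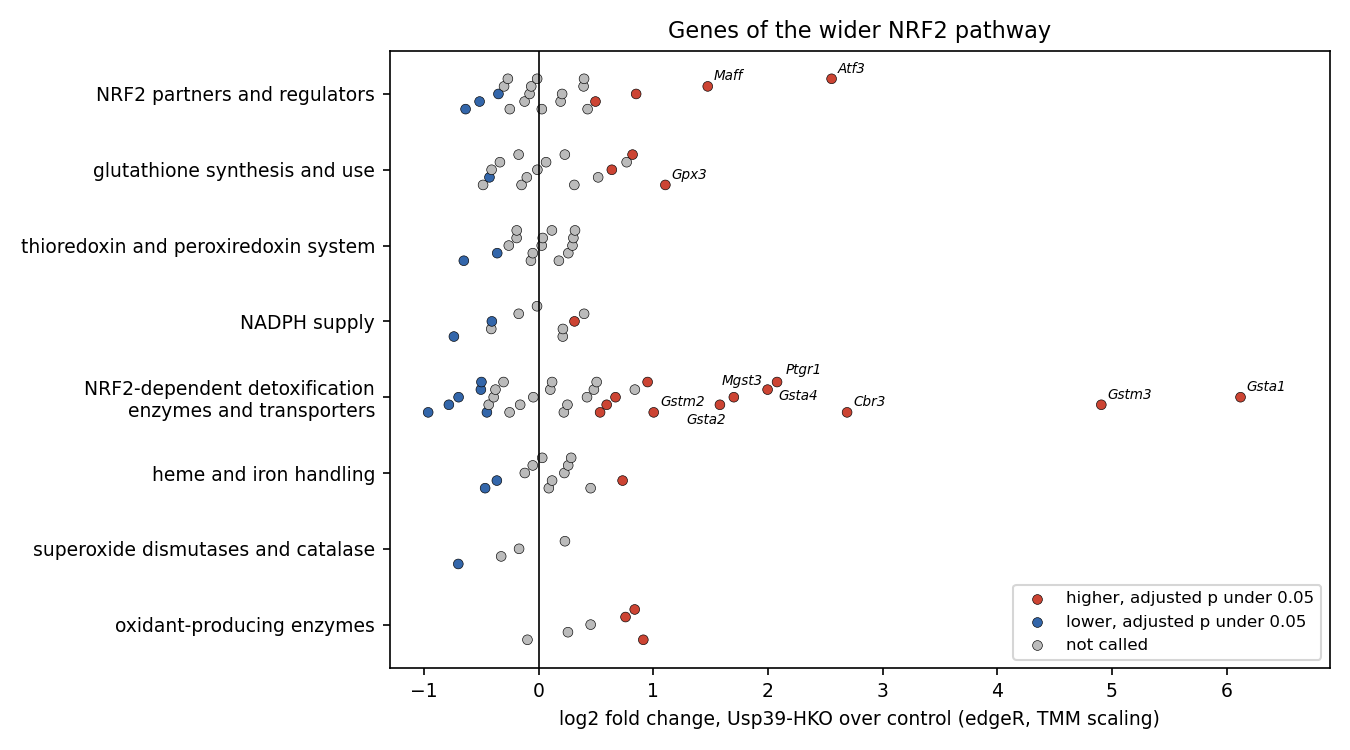
Log2 ratio of *Usp39*-HKO to control livers from edgeR with TMM scaling (horizontal axis) for the 115 tested genes of the 8 lists (rows, with a small vertical offset to separate points), red where called higher, blue where called lower and grey where not called. Labels mark called genes with a log2 fold change above 1, a limit set after the values were seen, and 8 of the 11 stand in the detoxification row, with *Gsta1* and *Gstm3* the farthest right, genes of a family whose members may share reads.

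In glutathione synthesis and use, 3 of 16 genes rose, 1 fell and 12 were not called, with a median log2 fold change of 0.03. The background shares were 10.9% higher and 11.6% lower. *Gss*, the synthetase of the second step of glutathione synthesis, measured between 8.42 and 13.4 FPKM in controls and between 15.5 and 22.2 in *Usp39*-HKO livers. It rose by a log2 fold change of 0.64 (adjusted p = 0.00924), and 15.4% of its exon bases overlap genes on the opposite strand. *Gpx3*, a secreted glutathione peroxidase, rose from between 7.23 and 10.6 FPKM to between 15.7 and 41.2, with A474 the highest, a log2 fold change of 1.11 (adjusted p = 0.00946). *Glrx*, a glutaredoxin, fell by 0.43 on the log2 scale (adjusted p = 0.0253), a call that was lost in 4 of the 8 fits without 1 liver, those without *Usp39*-HKO A471 or A474 and without control A472 or A473 (adjusted p up to 0.0756). For *Glrx* the log2 fold change was −0.20 without TMM scaling (adjusted p = 0.217) and −0.18 in limma on log2(FPKM + 1) (adjusted p = 0.23).

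The thioredoxin and peroxiredoxin list had 0 of 15 genes called higher by edgeR (1 at an unadjusted p under 0.05) or by DESeq2, and 4 in limma on log2(FPKM + 1). The limma fit had no TMM scaling. In this list 2 genes were called lower by edgeR. *Txnrd2*, the mitochondrial counterpart of *Txnrd1*, measured between 6.72 and 8.04 FPKM in controls and between 4.47 and 6.24 in *Usp39*-HKO livers. The groups did not overlap, and it fell by 0.65 on the log2 scale (adjusted p = 0.00687). *Prdx6*, a peroxiredoxin, fell by 0.36 on the log2 scale (adjusted p = 0.0458), but of the 8 fits without 1 liver only that without *Usp39*-HKO A471 gave an adjusted p under 0.05, the others reaching 0.129. Without TMM scaling *Prdx6* had a log2 fold change of −0.13 (adjusted p = 0.383), and in limma on log2(FPKM + 1) also −0.13 (adjusted p = 0.32). *Txn1*, *Prdx1* and *Sesn2*, further thiol genes known to respond to NRF2, had log2 fold changes of 0.26, −0.07 and 0.32 and were not called.

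Enzymes that supply NADPH, the reductant of both systems, had 1 of 9 genes called higher and 2 lower. Over all genes tested, these shares were 10.9% and 11.6%. *Pgd*, of the pentose phosphate pathway, measured between 4.95 and 6.07 FPKM in controls and between 7.83 and 9.49 in *Usp39*-HKO livers, a log2 fold change of 0.31 (adjusted p = 0.0417). That call was lost in 6 of the 8 fits without 1 liver, all but those without *Usp39*-HKO A470 or control A472, with adjusted p up to 0.129. *Mthfd1*, of one-carbon metabolism, fell from between 56.2 and 74.4 FPKM to between 42.5 and 49.8, by 0.74 on the log2 scale (adjusted p = 0.00211). *Pgls*, also of the pentose phosphate pathway, fell by 0.41 on the log2 scale (adjusted p = 0.0127). Without TMM scaling its log2 fold change was −0.18 (adjusted p = 0.173), and 20.6% of its exon bases overlap *Fam129c* on the same strand.

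Around *Hmox1*, 1 of the 12 genes of heme and iron handling was called higher and 2 lower, against 10.9% and 11.6% of all genes. *Flvcr1*, a heme exporter, rose from between 1.14 and 1.58 FPKM to between 2.41 and 3.65, a log2 fold change of 0.73 (adjusted p = 0.00976), and 15.6% of its exon bases overlap a gene on the opposite strand. *Fech*, which inserts iron to complete heme, fell by 0.47 on the log2 scale (adjusted p = 0.0113), with an adjusted p of 0.147 without TMM scaling. *Hmox2*, the constitutive heme oxygenase, measured between 21.96 and 27.4 FPKM in controls and between 21.6 and 23.9 in *Usp39*-HKO livers, so the groups overlapped. Its log2 fold change of −0.36 had an adjusted p of 0.0342, which was lost in 5 of the 8 fits without 1 liver, those without *Usp39*-HKO A470 or A474 and without control A472, A473 or A475 (adjusted p up to 0.104). It was −0.13 without TMM scaling (adjusted p = 0.371) and −0.12 in limma on log2(FPKM + 1) (adjusted p = 0.358), and 40.2% of the exon bases of *Hmox2* overlap *Cdip1* on the opposite strand.

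Of the 4 superoxide dismutases and catalase, 0 were called higher by edgeR (0 at an unadjusted p under 0.05) or DESeq2 and 1 by limma on log2(FPKM + 1). *Cat*, the peroxisomal catalase, was called lower. It measured 1099, 953, 1029 and 900.5 FPKM in controls A468, A472, A473 and A475 and 624, 859, 739.9 and 659 in *Usp39*-HKO livers A469, A470, A471 and A474. All *Usp39*-HKO livers were below all controls, and *Cat* fell by 0.70 on the log2 scale (SE 0.15, adjusted p = 0.00775).

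On the side of oxidant production, 3 of 6 genes rose and 0 were called lower, by edgeR, DESeq2 or limma (0 also at an unadjusted p under 0.05). *Cybb*, the catalytic subunit of the NADPH oxidase of phagocytes, rose from between 7.39 and 8.20 FPKM to between 12.5 and 21.9, a log2 fold change of 0.76 (adjusted p = 0.00289). *Cyba*, the partner subunit in the membrane, rose from between 9.97 and 17.7 FPKM to between 22.6 and 36.6, a log2 fold change of 0.91 (adjusted p = 0.00621). A474 had the highest level of *Cybb* and *Cyba*, as it had the highest sum of Kupffer cell markers, and the part of these cells in both was not tested.

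The genes outside the members whose pattern was most like that of *Nqo1* were *Hap1*, *Rap1b*, *Pdgfc*, *Usp11* and *Csnk1e*, with Pearson correlations of log2 TMM-scaled CPM between 0.98 and 0.99 over the 8 livers. All points share the split by genotype and the high value of A474, so the likeness is a description of these livers. *Pdgfc*, a growth factor gene, had mean FPKM of 1.23 in controls and 3.76 in the *Usp39*-HKO group, and the other 4 had log2 fold changes between 0.38 and 0.84.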

How the data were processed

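Liver RNA of 8 mice was sequenced, with 1 library per liver, prepared with a NEB Next Ultra kit. Per the labels, reads passed Trim Galore 0.6.1 and FastQC 0.11.9 and were aligned with HISAT2 to mm10. The authors counted reads per gene with featureCounts and deposited raw counts and FPKM, which equal the counts divided by exon length and library total. Annotation release, strandedness and the treatment of reads matching several genes are not given in the sources used here. The 7 columns of the authors' DESeq2 comparison (mean, log2 fold change, standard error, statistic and p-values) were not used. The 314 repeated entries of the 55699 held identical values and were read once.

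The members and gene lists were chosen with earlier results of these data known. Genes with at least 0.5 FPKM in at least 4 of 8 livers (14340) were tested with edgeR 4.0.16 (quasi-likelihood, R 4.3.3) on the deposited counts, with TMM factors between 0.912 and 0.940 in controls and between 1.01 and 1.19 in *Usp39*-HKO livers, genotype as the only term, and two-sided p-values, adjusted by Benjamini-Hochberg over these genes. All adjusted p-values given are from edgeR unless DESeq2 1.42.0 or limma 3.58.1 is named. Exact permutation tests of FPKM means were two-sided over the 70 assignments of livers to groups. Alternatives were median-ratio factors, no TMM factors, no filter, a mean of at least 5 FPKM, DESeq2, limma on log2(FPKM + 1) and log2(FPKM + 0.1), and leaving out each liver. FPKM divided by the TMM factors, and FPKM differences without each liver, were added after seeing the data. Counts of livers within a group differed beyond counting error (chi-square over its degrees of freedom, 5.88 to 35.9). The labels name no litter or batch, and the p-values set the difference between genotypes against the spread between these mice.

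Named genes were every member, the up to 2 higher and 2 lower genes of each list with the smallest p, *Usp39*, and the 5 genes most correlated with *Nqo1*. *Maff*, *Pgam5*, *Cul3*, *Rbx1*, *Bach1*, *Mafg*, *Txn1*, *Prdx1*, *Sesn2*, *Cps1* and *Gsta1* were added after their values were seen. So were *Gsta2*, *Gsta3*, *Gstm1*, *Gstm2*, *Gstp1*, *Gstp2*, *Mgst1* and *Mgst3*. Of the 125 list symbols, 124 matched 1 identifier, and *Nnt* matched more and was left out. Coordinates and exon overlap came from GENCODE vM21 on GRCm38, shared sequence from BLAST+ (at least 150 bases and 97% identity), and start site windows from RefSeq on GRCm38.p6. A gene of these lists is not reported here by name. The fits were tested on simulated data.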

Additional observations from a re-analysis of the deposited data

Results flagged for a closer look

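Of 34 groups of 4 livers, which are the tested members and the summed marker lists in either genotype, 5 held a liver far from the others, with a gap to its nearest neighbour larger, relative to the range of the group, than Dixon's 95% critical value. Chance gives about 1 in 20 such groups. *Nqo1* in control A468 was 8.07 FPKM, against 5.85 to 6.18 in the other controls. *Gclc* in the same liver was 126.2 FPKM, against 47.0 to 54.5. *Hmox1* in *Usp39*-HKO A474 was 98.7 FPKM, against 47.8 to 49.5 in the other *Usp39*-HKO livers. The Kupffer cell markers of A474 summed to 718 FPKM, against 489 to 511. Markers of the exocrine pancreas summed to 728.5 FPKM in control A475, against 0.405 to 0.889 in the other controls. Without A475 the log2 fold changes were 0.48 for *Nfe2l2*, 0.85 for *Nqo1*, 0.82 for *Srxn1*, 1.0 for *Hmox1* and 1.71 for *Osgin1*, each with an adjusted p under 0.05 in edgeR (0.036 or less).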

How the results depend on the processing

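*Nfe2l2*, *Nqo1*, *Srxn1*, *Hmox1* and *Osgin1* were called higher in all 15 alternatives run for each, with adjusted p up to 0.0378, 0.0363, 0.0186, 0.018 and 0.0358. With 1 liver left out, their log2 fold changes lay between 0.39 and 0.48, 0.66 and 1.02, 0.77 and 1.07, 0.69 and 1.05, and 1.5 and 2.10. *Keap1* was called in none and lay between 0.01 and 0.30. *Gclc* was not called, lay between −0.55 and 0.07, and turned to 0.0709 without control A468. *Gclm* lay between −0.57 and −0.31 and passed with no filter (−0.51, adjusted p = 0.0209), in DESeq2 (−0.47, 0.0309) and without *Usp39*-HKO A470 or control A472 (−0.56 and −0.57), which makes 1 member lower rather than 0. *Txnrd1* lay between 0.24 and 0.44 and passed without TMM factors (0.56), in limma with a pseudocount of 1 (0.55) or 0.1 (0.57) and without control A468 (0.44), which makes 6 higher rather than 5. Its FPKM difference was 6.28 with TMM-scaled values. List genes called higher numbered 49 without TMM factors, 39 and 41 in limma with pseudocounts of 1 and 0.1, and 19 to 29 with 1 liver left out. Those called lower numbered 6, 4 and 4 in the same fits, 11 of the 93 tested at a mean of at least 5 FPKM, and 10 to 16 with 1 liver left out. Over all genes, 3225 of 14340 were called, 4211 without TMM factors, 1595 of 6672 at a mean of at least 5 FPKM, and 2094, 1931 and 2043 without *Usp39*-HKO A474, control A473 and control A475. The cause of these differences was not tested. No paired analysis was possible because the labels give each mouse a number of its own and none that is shared between the genotypes. Groups of 4 limit precision for *Keap1* and *Gclc*, and depth limits *Slc7a11*.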
